A study of Mus musculus with 12 samples.

Results

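Pre-memory B cells and light zone B cells of the germinal center were compared among cells called G1 only, so that the phase of the cell cycle would not set the difference between them. Cells were taken by the authors' own labels: a cell cycle call of G1, and a state of either preMem (pre-memory) or LZ (light zone). These criteria gave 370 preMem and 1235 LZ cells of the 6000 cells in the deposited data. The restriction weighed unequally on the states, since 93.5% ± 1.97 (SD, n = 3 mice) of all preMem cells but 55.7% ± 4.11 of all LZ cells were in G1. Only 26 preMem cells, 16 in S and 10 in G2/M phase, were left out, against 978 LZ cells.

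The cells came from lymph nodes draining the site of immunisation with NP-KLH, a hapten on a carrier protein, given in Sigma Adjuvant System. All 3 mice were treated alike: they were given tamoxifen by gavage 5 days before analysis, which took place at day 16 after priming. Live cells without surface IgD and with the eYFP reporter were sorted, marked per mouse by a barcoded antibody to CD45 and read by droplet-based 5' single-cell RNA sequencing. The genotype that carries eYFP, the promoter that drives it, and the age and sex of the mice were not stated in the labels. There was no untreated group, and both states come from the same 3 animals, so the comparison is between cells within a mouse.

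A germinal center is the structure of a lymph node in which activated B cells mutate their antibody genes and compete for help from T cells. In its light zone, B cells take up antigen, present it to T cells and either return to the dark zone to divide or leave. Those that leave as memory B cells stop dividing, regain receptors for circulation and survive for long periods, and pre-memory cells are thought to be the light zone stage just before that exit.

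Raw counts of unique molecular identifiers (UMIs, 1 per captured transcript) were summed per mouse and state. The preMem sums held 96, 137 and 137 cells with 423896, 626830 and 623947 UMIs in mice 1 to 3, and the LZ sums held 307, 358 and 570 cells with 1683238, 2018224 and 3119176 UMIs. Levels are given as CPM, the count of a gene scaled to a common total, and differences as log2 fold changes of preMem over LZ ± SE, with p-values adjusted over all genes tested. A preMem cell held fewer UMIs, a median of 3993 to 4311 per mouse against 5322 to 5368 in LZ, so shares of cells with a UMI of a gene are also given after thinning each cell to 2000 UMIs.

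Some measures of makeup differed between the states and bear on how the gene values can be read. To begin with, the states were named from the same RNA: the deposited memory score ran from 0.78 to 1.13 (median 0.9) in preMem and from 0.4 to 0.78 (median 0.638) in LZ cells of G1, with 38 and 41 cells within 0.02 of the boundary. Which genes make up that score was not stated in the labels or headers, so differences in genes it contains are in part built in. Further, 48.2% ± 2.48 of preMem cells but 6.29% ± 0.368 of LZ cells held a UMI of Ighd, the IgD heavy chain (29.4% ± 2.51 and 2.71% ± 0.521 after thinning), although the sort excluded surface IgD. In addition, 33.0% ± 0.782 of preMem and 56.7% ± 1.87 of LZ cells held a UMI of the eYFP reporter (14.3% ± 2.67 and 28.1% ± 0.789 after thinning).

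Among preMem cells, the pooled share with an eYFP UMI was close with and without an Ighd UMI. An eYFP UMI was found in 57 of 179 preMem cells with an Ighd UMI (31.8%, exact binomial 95% interval 25.1 to 39.2) and in 65 of 191 without one (34.0%, 27.3 to 41.2). These shares pool the cells of the 3 mice without thinning. Their intervals cover counting error only and not the spread between mice. As a level, eYFP was 113, 102 and 97.4 CPM in preMem of mice 1 to 3 and 176, 153 and 153 CPM in LZ, a log2 fold change of -0.62 ± 0.11 (adjusted p = 0.0014). Every LZ sum lay above every preMem sum. The part of these measures in the results was not tested, but some of the values below are repeated on cells with an eYFP UMI and on cells without an Ighd UMI.

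RNA of T, NK and stromal cells was near 0 on both sides. Summed T cell markers, 8 of 11 in the matrix, were 0.0 to 1.68 CPM in preMem and 1.45 to 3.09 CPM in LZ, and Trbc2 was at 0. Summed NK markers were 1.68 to 6.72 and 0.484 to 0.927 CPM, with Nkg7, Klrd1 and Klrb1c at 0, and summed stromal markers 0.0 and 0.967 to 1.24 CPM. Myeloid markers summed to 547 to 805 CPM in preMem and 481 to 888 CPM in LZ, nearly all from Apoe and Cst3, while C1qa and C1qc were at 0 and Lyz2 had 0 preMem UMIs. Of the plasma cell markers, Sdc1 had 1 preMem and 0 LZ UMIs.

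Of 7484 genes tested, 1561 differed between the states (20.9%): 862 were higher in preMem (11.5%) and 699 lower (9.34%), with a median log2 fold change of 0.02 over all genes. Among genes with at least 50 CPM in the higher state, the leading increases included Plac8, the S100 family member S100a10, the urokinase receptor Plaur and the nuclear body protein Pml. The leading decreases, by the same rule, included the germinal center factor Mef2b, the copine Cpne5, Lst1 and the receptor S1pr2, which holds B cells in the follicle.

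**Figure D1:**
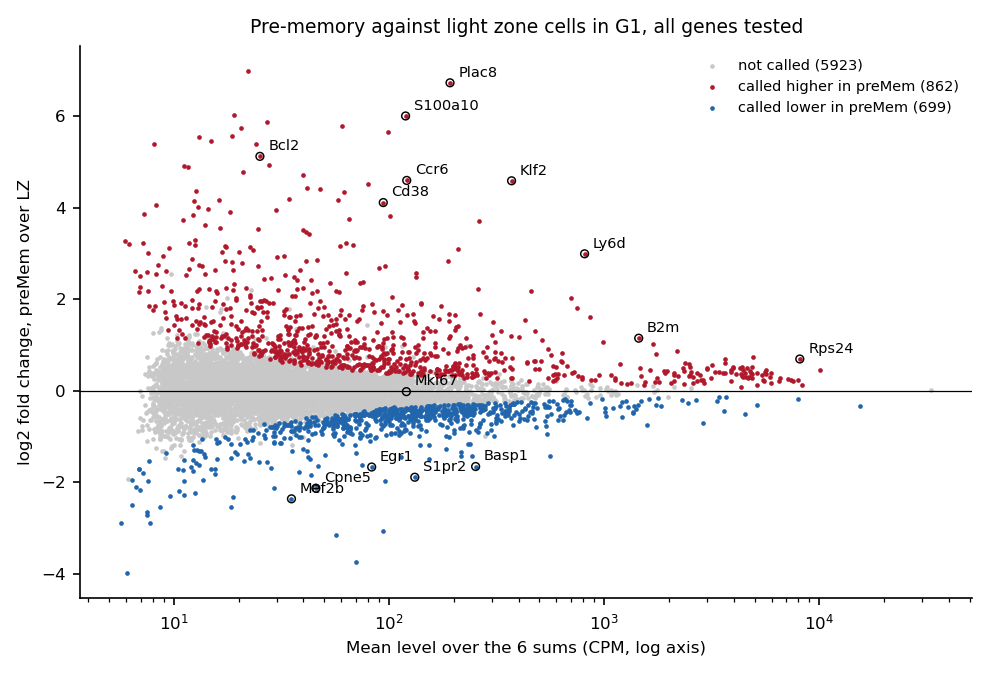
Mean level over the 6 sums (CPM, log axis) against the log2 fold change of preMem over LZ, 1 point for each of the 7484 genes tested. Red points are the 862 genes called higher and blue points the 699 called lower in preMem (edgeR, adjusted p under 0.05), and Mki67 lies at the zero line among uncalled genes.

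Plac8, a small cysteine-rich protein of lymphoid and myeloid cells, had 406, 363 and 371 CPM in preMem of mice 1 to 3 and 6.98, 2.9 and 1.85 CPM in LZ. The states were far apart in each mouse, with a log2 fold change of 6.73 ± 0.21 (adjusted p = 2.4e-09). It was detected in a minority of cells: 21.1% ± 5.02 of preMem and 0.51% ± 0.291 of LZ cells held a Plac8 UMI after thinning.

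S100a10, a partner of annexin A2 at the plasma membrane, had 223, 262 and 220 CPM in preMem against 4.66, 1.93 and 4.02 CPM in LZ (6.01 ± 0.21, adjusted p = 4.4e-09). Pml had 118, 143 and 94.0 CPM against 2.91, 1.45 and 1.85 CPM (5.78 ± 0.26, adjusted p = 2.5e-08). Plaur varied more between mice, at 27.6, 79.0 and 53.7 CPM in preMem and 0.0, 1.93 and 0.618 CPM in LZ (5.87 ± 0.41, adjusted p = 9.3e-07). For none of these did the mice of the 2 states overlap.

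**Figure D2:**
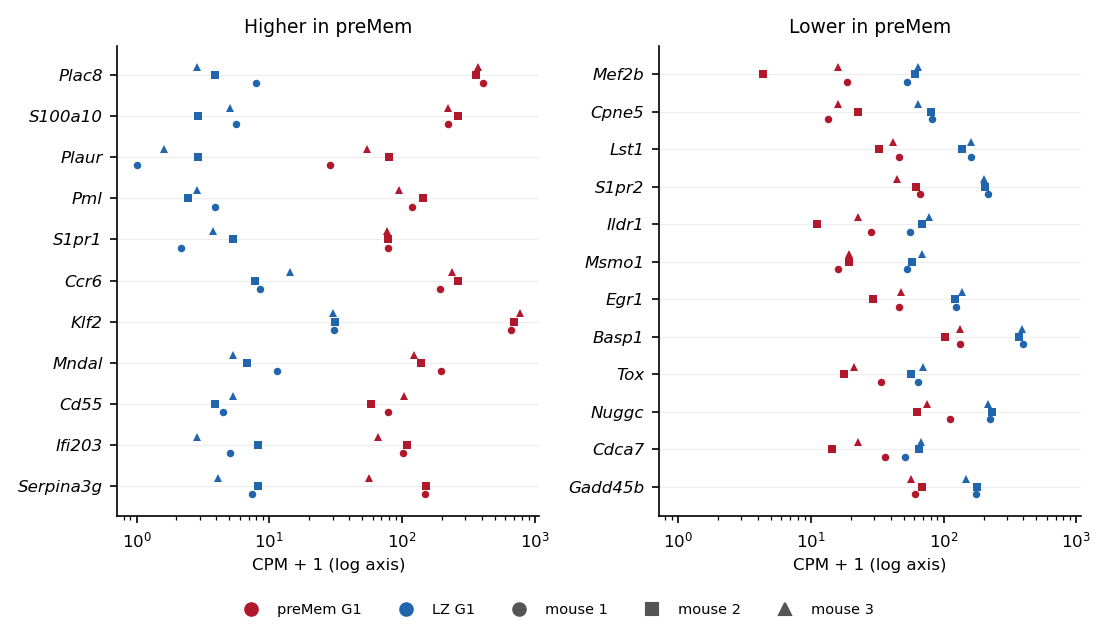
CPM + 1 (log axis) of 11 leading increases (left) and the 12 leading decreases (right) among genes with at least 50 CPM in the higher state, 1 point per mouse, with red for preMem and blue for LZ cells in G1. Red and blue points of a gene do not overlap in any of the 23 genes shown, and Serpina3g is lowest in mouse 3 among the preMem points.

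Transcription regulators linked to memory B cells made up a group with 12 members higher, 1 lower and 6 not called of 19 tested (24 listed), with a median of 1.81 against 0.02 over all genes. Members such as Klf3 and Bhlhe41 pass the count filter only through preMem and had to differ, so this count, like those of the other lists, is a description. Klf2, which drives the egress receptors and quiescence of lymphocytes, had 667, 696 and 774 CPM in preMem and 29.7, 30.5 and 29.0 CPM in LZ. These levels were tight within each state and gave 4.59 ± 0.10 (adjusted p = 5e-11). Unlike Plac8, Klf2 was seen in most preMem cells: 61.2% ± 0.481 after thinning, against 5.3% ± 0.445 of LZ cells.

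Klf3, a repressor of the same family, had 32.6, 35.3 and 63.8 CPM in preMem but only 2 UMIs in all LZ cells, against 72 in preMem. The ratio of pooled shares was 147 (exact 95% interval 39.1 to 1234, counting error only). Bhlhe41, a repressor known from B-1 and memory B cells, had 27.6, 45.4 and 36.9 CPM in preMem and 0.0, 0.484 and 1.24 CPM in LZ (5.58 ± 0.48, adjusted p = 5.7e-06).

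Zeb2, a zinc finger repressor, had 62.7, 73.9 and 78.9 CPM in preMem against 12.2, 5.32 and 13 CPM in LZ (2.84 ± 0.26, adjusted p = 1e-05). Hhex, a homeobox factor needed for memory B cell formation, had 67.7, 77.3 and 73.9 CPM against 18.6, 19.8 and 23.5 CPM (1.81 ± 0.18, adjusted p = 2e-05). Its co-repressor Tle3 passed more narrowly, at 20.1, 20.2 and 30.2 CPM against 8.73, 10.2 and 14.8 CPM (1.05 ± 0.29, adjusted p = 0.023). The Tle3 call was lost without any 1 of the mice, with adjusted p of 0.0562, 0.0782 and 0.119 without mouse 1, 2 and 3.

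Foxp1, a forkhead factor of follicular B cells, was at 276, 286 and 304 CPM in preMem and 116, 110 and 118 CPM in LZ (1.33 ± 0.09, adjusted p = 9.5e-07). Bach2, a repressor that favours memory over plasma cell fate, was not called: its 120, 134 and 139 CPM in preMem lay below the 159, 165 and 157 CPM in LZ, with a log2 fold change of -0.28 ± 0.11 (adjusted p = 0.089). Among cells without an Ighd UMI the Bach2 difference was -0.59 and passed (adjusted p = 0.0148). With cells of all phases it was 0.04 (adjusted p = 0.826). Id3, an inhibitor of E proteins, was the 1 member lower in preMem, at a mean of 257 against 405 CPM.

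Of the memory surface markers 8 were higher, 1 lower and 5 not called of 14 tested (20 listed), with a median of 0.75. Cd38, an ectoenzyme that germinal center B cells of mice lose and memory cells regain, had 138, 213 and 183 CPM in preMem and 5.24, 10.2 and 14.2 CPM in LZ (4.11 ± 0.20, adjusted p = 4.1e-08). Cd55, which protects cells from complement, had 77.8, 57.1 and 102 CPM against 3.49, 2.9 and 4.33 CPM (4.44 ± 0.25, adjusted p = 2.1e-07). Ly6d had 1270, 1510 and 1540 CPM in preMem and 149, 207 and 188 CPM in LZ (2.99 ± 0.06, adjusted p = 5e-11).

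An Ly6d UMI was held by 80.4% ± 2.42 of preMem and 23.3% ± 1.96 of LZ cells after thinning, while Cd38 was seen in 26.8% ± 4.39 and 2.07% ± 0.364. Surface markers used to divide mature memory cells into subsets were not called or not tested. Pdcd1lg2 (PD-L2, 11.5 against 6.93 CPM) and Nt5e (CD73, 14 against 18.9 CPM) were not called, and Cd80 fell below the filter at 8.94 against 2.02 CPM. Cd24a was lower, at a mean of 373 against 567 CPM (log2 fold change -0.61).

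Receptors for homing and egress had 12 members higher, 3 lower and 9 not called of 24 tested (28 listed), with a median of 1.02; without mouse 3 only 1 was lower. S1pr1, the receptor by which lymphocytes leave the node, had 77.8, 77.3 and 75.6 CPM in preMem and 1.16, 4.35 and 2.78 CPM in LZ (4.72 ± 0.31, adjusted p = 5.4e-07). The S1pr1 levels of the 3 mice were nearly equal in preMem, and the states did not overlap.

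Receptors for chemokines and oxysterols outside the germinal center rose with them. Ccr6, which responds to CCL20, had 193, 265 and 238 CPM in preMem and 7.57, 6.77 and 13.3 CPM in LZ (4.6 ± 0.19, adjusted p = 1.7e-08). Ccr7, the receptor for T zone chemokines, had 80.3, 52.1 and 63.8 CPM against 1.75, 5.32 and 3.09 CPM (4.19 ± 0.35, adjusted p = 3.8e-06). Gpr183 (EBI2), which guides B cells to the outer follicle, had 125, 129 and 113 CPM against 9.31, 9.67 and 19.5 CPM (3.19 ± 0.24, adjusted p = 1.7e-06).

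The integrin chain Itgb7 had 95.3, 119 and 114 CPM in preMem and 5.24, 6.29 and 6.49 CPM in LZ (4.17 ± 0.20, adjusted p = 4.1e-08). Its partner chain Itga4 was also higher, at a mean of 71.6 against 16.0 CPM (log2 fold change 2.14). S1pr2, which opposes movement out of the follicle, went the other way: 65.2, 60.5 and 43.7 CPM in preMem and 217, 203 and 201 CPM in LZ (-1.89 ± 0.13, adjusted p = 9.3e-07). Gna13, the G protein that relays its signal, was lower as well, at 90.6 against 118 CPM (-0.40, adjusted p = 0.0404).

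Of the receptors that place B cells within the germinal center, Cxcr5 and Cxcr4 were not called. Cxcr5, the follicle homing receptor, had 82.8, 106 and 143 CPM in preMem and 118, 107 and 120 CPM in LZ, and the mice overlapped (-0.04 ± 0.14, adjusted p = 0.89). Its sign changed with the cells used, from -0.04 to 0.18 with all phases. Cxcr4, which holds cells in the dark zone, had 52.7, 28.6 and 48.7 CPM against 33.2, 31.9 and 38.9 CPM (0.28 ± 0.21, adjusted p = 0.39).

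Genes induced by interferon were higher in preMem throughout. Of 30 listed genes 25 passed the count filter, and all 25 were higher in preMem, with a median of 1.65. The 5 others, Ifit1, Ifit2, Ifit3, Oas1a and Mx1, were too low to be tested. A gene that passes the filter mainly through its preMem level has to differ, and the count is a description for that reason. Their products restrict viruses and intracellular microbes, and their promoters commonly carry an interferon-stimulated response element, a pair of GAAA half-sites bound by interferon-responsive factors. The half-site pair was searched as GAAANNGAAA and its reverse complement TTTCNNTTTC in the 300 bases from 250 before to 50 after each gene's start, in RefSeq's mouse promoters (build GRCm38.p6).

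To show what this pair looks like, 80 bases are printed from promoters of list members called higher that hold it, 5' to 3' on the gene's strand, with the matched letters in capitals. They lie at chr3:142530248-142530327 (+ strand) for Gbp7, chr1:173942483-173942562 (- strand) for Ifi203, chr11:48871406-48871485 (- strand) for Irgm1, chr3:142620569-142620648 (+ strand) for Gbp2 and chr11:58199487-58199566 (+ strand) for Igtp.
Gbp7: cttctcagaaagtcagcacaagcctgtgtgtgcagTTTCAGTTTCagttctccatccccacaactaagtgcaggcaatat
Ifi203: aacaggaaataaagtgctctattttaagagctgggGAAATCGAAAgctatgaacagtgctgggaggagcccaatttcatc
Irgm1: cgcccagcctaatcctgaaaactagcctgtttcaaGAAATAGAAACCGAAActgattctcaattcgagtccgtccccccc
Gbp2: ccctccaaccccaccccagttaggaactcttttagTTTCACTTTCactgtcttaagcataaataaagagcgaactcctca
Igtp: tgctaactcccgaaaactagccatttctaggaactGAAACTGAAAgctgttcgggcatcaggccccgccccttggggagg

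Irgm1 holds 2 overlapping matches, so its capitals run over 3 GAAA half-sites, while Gbp7 and Gbp2 carry the pair on the opposite strand. A gene was counted if any of its promoters held the pair. A promoter entry was matched for 23 of the 30 list genes, and 13 of them held the pair (56.5%), against 3.99% of all 27025 genes with an entry. Among genes called higher in preMem, 60 of 624 with an entry held it (9.62%). The share was 3.95% over all 5721 tested genes with an entry and 2.34% of those called lower. A match is a description of letters and does not show that a factor bound there.

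Ifi203, a nucleic acid sensor of the PYHIN family, had 100, 108 and 65.5 CPM in preMem and 4.07, 7.25 and 1.85 CPM in LZ (4.41 ± 0.27, adjusted p = 2.9e-07). Its relative Mndal, not on the list, had 196, 139 and 123 CPM against 10.5, 5.8 and 4.33 CPM (4.51 ± 0.19, adjusted p = 1.7e-08). Irgm1, a GTPase of autophagy and of defence against intracellular microbes, had 145, 150 and 67.2 CPM against 12.8, 10.2 and 4.33 CPM (3.75 ± 0.19, adjusted p = 8.5e-08). In these 3 genes mouse 3 was the lowest on both sides.

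The guanylate-binding protein Gbp7 had 40.1, 57.1 and 15.1 CPM in preMem and 3 UMIs in all LZ cells, against 59 in preMem, a ratio of pooled shares of 80.1 (exact 95% interval 26.1 to 399.5). Rtp4 had 40.1, 28.6 and 23.5 CPM in preMem and 2.91, 0.484 and 1.54 CPM in LZ (4.17 ± 0.43, adjusted p = 2.5e-05). Regulators of the response were higher by less: Irf1 at a mean of 219 against 82.1 CPM (1.37), Irf9 at 84.1 against 33.1 CPM (1.32) and Irf7 at 95.3 against 63.3 CPM (0.56, adjusted p = 0.0169). Gbp genes are close paralogs, so reads of Gbp2, Gbp3 and Gbp7 could be shared between them.

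**Figure D3:**
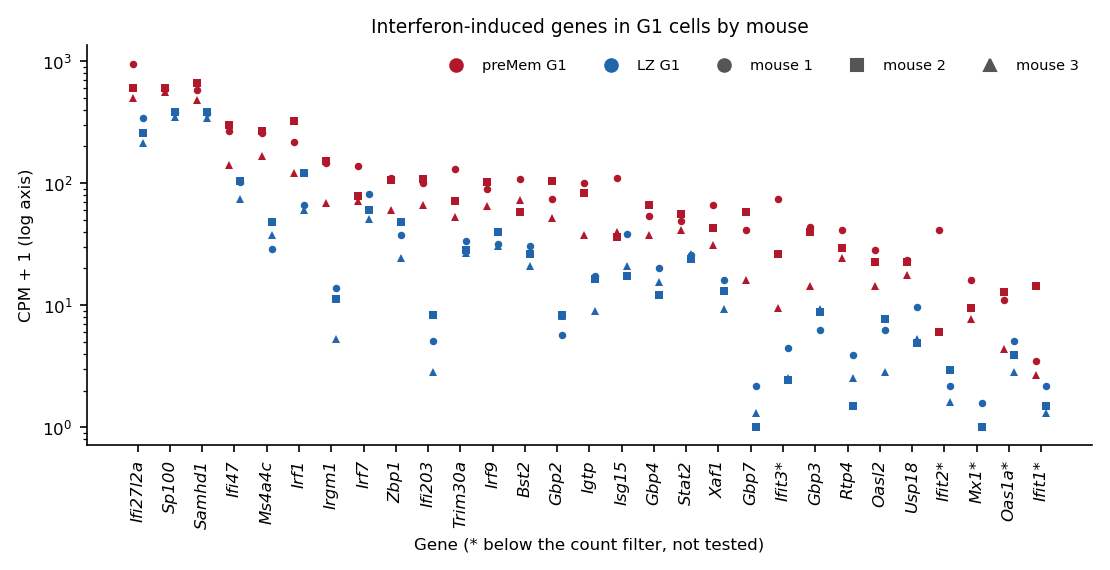
CPM + 1 (log axis) of 29 of the 30 interferon-induced genes, 1 point per mouse and state, ordered by mean preMem level, with a star on the 5 genes not tested. Red preMem points lie above blue LZ points for most genes, and triangles (mouse 3) are often the lowest of a colour.

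Summed over the list, the interferon-induced genes came to 4900, 4550 and 3040 CPM in preMem and 1860, 1820 and 1470 CPM in LZ of mice 1 to 3. The lowest preMem sum, of mouse 3, was above the highest LZ sum, of mouse 1. Without mouse 3, 25 of 27 tested members were higher (median 1.68). Among eYFP-UMI cells 19 of 21 were higher, among cells without an Ighd UMI 24 of 25, and among switched cells 11 of 16, with none lower in any of these. Over all genes tested, 541 of 6022, 642 of 7053 and 264 of 4702 were higher in the same order.

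Of the 4 interferon receptor chains, Ifnar1, Ifnar2 and Ifngr2 were higher. Ifnar2, a chain of the type I receptor, had 42.6, 33.6 and 55.4 CPM in preMem and 10.5, 7.74 and 6.8 CPM in LZ (2.44 ± 0.30, adjusted p = 8.9e-05). The other chain, Ifnar1, was at 30.2 against 13.9 CPM (1.14, adjusted p = 0.00992). Of the type II receptor, Ifngr2 was higher (91.4 against 49.8 CPM, 0.88), while Ifngr1 was not called (124 against 122 CPM, adjusted p = 0.925).

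Ifnar1 and Ifnar2 belong to a list of cytokine and TNF family receptors, of which 10 were higher and 2 lower of 17 tested (24 listed, median 0.72), and 1 lower without mouse 3. Il10ra, the specific chain of the IL-10 receptor, had 30.1, 68.9 and 50.4 CPM in preMem and 15.1, 10.6 and 19.5 CPM in LZ (1.73 ± 0.30, adjusted p = 0.0013). Il10rb (15.9 against 3.39 CPM) and Il27ra (24.6 against 6.41 CPM) were also higher. The 2 lower members were Il21r, the receptor for a cytokine of follicular helper T cells (156 against 209 CPM, -0.42), and Tnfrsf13c, the BAFF receptor (554 against 770 CPM, -0.47). The related receptor Tnfrsf13b (TACI) was higher, at 244 against 162 CPM (0.58, adjusted p = 0.000883).

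Class I presentation had 10 members higher, 3 lower and 4 not called of 17 tested (18 listed, median 0.71). B2m, the light chain of every class I molecule, had 2100, 2180 and 1690 CPM in preMem and 885, 1070 and 747 CPM in LZ (1.15 ± 0.05, adjusted p = 1.7e-08). The heavy chain H2-K1 had 2460, 2390 and 1900 CPM against 1060, 1320 and 970 CPM (1.01 ± 0.06, adjusted p = 2.1e-07), and H2-Q7 had 231, 296 and 138 CPM against 58.2, 80.7 and 37.1 CPM (1.91 ± 0.11, adjusted p = 2.1e-07). As in the interferon list, mouse 3 was lowest on both sides. H2-Q6 and H2-Q7 are near-identical, so their separate values are uncertain. The lower members were the immunoproteasome subunit Psmb8 (884 against 1140 CPM) and the chaperones Calr and Pdia3.

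Class II presentation, the task by which light zone cells obtain T cell help, changed little in its main chains. Of 13 genes 8 were higher and 2 lower, with a median of 0.25. Without mouse 1 or without mouse 2, 0 of them were lower. H2-Aa (7970 against 6800 CPM) was higher by 0.23 on the log2 scale and H2-Ab1 (3260 against 3600 CPM) lower by -0.14, while Cd74 (33400 against 33000 CPM) was not called. The peptide-loading chain H2-DMb1 had 75.3, 72.3 and 62.1 CPM in preMem and 32.6, 35.8 and 30.9 CPM in LZ (1.07 ± 0.17, adjusted p = 0.00068), and the protease Ctss was at 461 against 281 CPM (0.71). The peptide-loading inhibitors were higher as well: H2-Oa, at 710, 808 and 786 CPM in preMem and 503, 516 and 460 CPM in LZ (0.64 ± 0.07, adjusted p = 2.2e-05), and H2-Ob, at 820, 822 and 786 CPM against 480, 456 and 439 CPM (0.82 ± 0.06, adjusted p = 9.3e-07).

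Genes of germinal center identity were mostly lower in preMem: 13 lower, 4 higher and 2 not called of 19 tested (22 listed), with a median of -0.95. Mef2b, a factor upstream of Bcl6, had 17.6, 3.36 and 15.1 CPM in preMem and 52.4, 60.0 and 62.7 CPM in LZ (-2.36 ± 0.32, adjusted p = 0.00024). Cpne5 had 12.5, 21.8 and 15.1 CPM against 81.5, 79.8 and 63.3 CPM (-2.13 ± 0.22, adjusted p = 2.1e-05). Basp1 had 133, 102 and 131 CPM against 395, 367 and 387 CPM (-1.66 ± 0.10, adjusted p = 2.3e-07). No preMem sum of these genes reached the lowest LZ sum.

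Bcl6, the repressor that defines the germinal center program, fell by less. It had 62.7, 35.3 and 47.0 CPM in preMem and 75.7, 73.0 and 72.0 CPM in LZ, without overlap, and a log2 fold change of -0.64 ± 0.18 (adjusted p = 0.024). That call did not hold without mouse 2 (-0.47, adjusted p = 0.164) or without mouse 3 (-0.66, adjusted p = 0.11). Fas, the death receptor used to sort germinal center cells, had 110, 113 and 92.4 CPM against 205, 190 and 186 CPM (-0.88 ± 0.11, adjusted p = 0.00011).

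The germinal center list members that rose were Lmo2 (178 against 95.6 CPM), Sh3bp5 (254 against 167 CPM), Nedd9 (93.6 against 63.1 CPM) and the inhibitory lectin Cd22 (339 against 257 CPM). Other leading decreases were Lst1 (45.2, 31.9 and 40.3 CPM in preMem and 159, 137 and 159 CPM in LZ, -1.97), Ildr1 (27.6, 10.1 and 21.8 against 55.3, 68.2 and 77.2 CPM, -1.83) and the nuclear factor Tox (32.6, 16.8 and 20.2 against 62.9, 55.6 and 69.2 CPM, -1.49).

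Genes of light zone activation, which respond to the B cell receptor, CD40 and NF-kB, were lower or not called: 11 lower, 0 higher and 17 not called of 28 tested (30 listed), with a median of -0.28. Without mouse 3, 7 of 29 were lower. The immediate early gene Egr1 had 45.2, 28.6 and 47.0 CPM in preMem and 122, 120 and 136 CPM in LZ (-1.67 ± 0.16, adjusted p = 1.3e-05). Egr2 had 12.5, 3.36 and 6.72 CPM against 25.6, 20.3 and 24.1 CPM (-1.72 ± 0.37, adjusted p = 0.0061). The stress gene Gadd45b, outside the list, had 60.2, 67.2 and 55.4 CPM against 176, 177 and 147 CPM (-1.44 ± 0.12, adjusted p = 4.6e-06).

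Myc, which licenses light zone cells for renewed division, had 22.6, 23.5 and 26.9 CPM in preMem and 48.3, 30.5 and 44.2 CPM in LZ. The groups did not overlap, and the log2 fold change of -0.71 ± 0.22 passed narrowly (adjusted p = 0.042). The Myc call was lost without mouse 1, 2 or 3 (adjusted p = 0.153, 0.0542 and 0.172), among eYFP-UMI cells (0.379) and among cells without an Ighd UMI (0.375). Cd83, the surface marker by which light zone cells are sorted, fell by 0.30 on the log2 scale (482, 462 and 465 against 623, 538 and 576 CPM, SE 0.06, adjusted p = 0.0058). Several NF-kB genes, among them Nfkbia, Nfkb1, Rel and Relb, were not called.

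The authors' scores gave a mixed picture of the same axis. Median activation scores were 0.161 ± 0.00298 in preMem and 0.241 ± 0.00289 in LZ (SD, n = 3 mice). Median light zone scores were higher in preMem, at 0.201 ± 0.00963 against 0.0836 ± 0.00235, although these cells are not the ones named LZ. These values come with no test, since scores chose the states and their genes were not stated.

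The list of quiescence and cell cycle inhibition also holds the cyclins Ccnd2 and Ccnd3 and the kinases Cdk4 and Cdk6. It had 12 members higher, 1 lower and 8 not called of 21 tested (24 listed, median 0.82), even though cells of both states were in G1. Cdkn1b (p27), an inhibitor of cyclin-dependent kinases, had 85.3, 67.2 and 80.6 CPM in preMem and 6.4, 7.74 and 7.11 CPM in LZ (3.43 ± 0.23, adjusted p = 6.7e-07). The anti-proliferative gene Btg1 had 670, 717 and 717 CPM against 331, 327 and 316 CPM (1.11 ± 0.07, adjusted p = 2.5e-07). Pik3ip1, an inhibitor of PI3 kinase, had 20.1, 21.8 and 26.9 CPM against 1.16, 1.93 and 1.54 CPM (3.83 ± 0.43, adjusted p = 4.6e-05).

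The D-type cyclins of that list parted. Ccnd2 had 57.7, 90.7 and 50.4 CPM in preMem and 10.5, 14.5 and 15.1 CPM in LZ (2.25 ± 0.23, adjusted p = 2.5e-05), whereas Ccnd3, the cyclin that sustains germinal center divisions, was lower at a mean of 181 against 302 CPM (-0.73). Txnip, which restrains glucose uptake, was higher at 282 against 97.4 CPM (1.53). Foxo1 and Cdk4 were not called.

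Among the BCL2 family, Bcl2 stood out. This inhibitor of apoptosis had 57.7, 45.4 and 43.7 CPM in preMem and 1.16, 1.45 and 1.24 CPM in LZ (5.12 ± 0.35, adjusted p = 8.9e-07). Mcl1, another inhibitor, had 148, 119 and 134 CPM against 65.2, 78.8 and 78.8 CPM (0.83 ± 0.14, adjusted p = 0.00097). The 4 members that were lower are all promoters of apoptosis: Bid (87.8, 113 and 78.9 against 180, 179 and 192 CPM, -0.98), Bad, Bax and Bak1. The other 7 of 13 tested members were not called, and the list median was -0.30. Without mouse 3 only 1 member was lower, and without mouse 1 only 2 were.

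Cytoskeletal and calcium-binding genes had 12 members higher, 4 lower and 10 not called of 26 tested (30 listed, median 0.47). Capg, an actin-capping protein, had 462, 568 and 428 CPM in preMem and 38.4, 33.8 and 37.1 CPM in LZ (3.72 ± 0.12, adjusted p = 2.4e-09). It was seen in 51.8% ± 8.18 of preMem and 6.61% ± 0.129 of LZ cells after thinning. Lgals3 had 32.6, 40.3 and 48.7 CPM against 0.0, 0.967 and 0.927 CPM (5.74 ± 0.45, adjusted p = 2.4e-06). Vim, the intermediate filament of lymphocytes, was higher at 748 against 165 CPM (2.17). S100a10 and its partner Anxa2 went in opposite directions, the latter at 206 against 411 CPM (-1.0).

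Inhibitory receptors and phosphatases had 10 members higher, 0 lower and 3 not called of 13 tested (18 listed, median 0.92). Fcrl5 had 17.6, 42.0 and 43.7 CPM in preMem and 1.16, 1.93 and 3.4 CPM in LZ (3.91 ± 0.36, adjusted p = 9.2e-06). Pecam1 had 80.3, 104 and 85.6 CPM against 32.6, 22.7 and 31.2 CPM (1.66 ± 0.20, adjusted p = 7.4e-05). Fcgr2b, the inhibitory Fc receptor (80.5 against 33.3 CPM, 1.30), and Cd72 (422 against 203 CPM, 1.06) were higher as well. The phosphatases Ptpn6 and Inpp5d were not called.

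Antigen receptor signalling moved less, with 5 members higher and 1 lower of 20 tested and a median of 0.09. Without mouse 1, 3 members were higher, and without mouse 3, 2 were (median 0.0). Cd79a, the signalling chain of the receptor, had 4840, 4900 and 5310 CPM in preMem and 3620, 3530 and 3570 CPM in LZ (0.49 ± 0.03, adjusted p = 4.5e-07), and the kinase Prkcb was at 101 against 53.4 CPM (0.94). Of the B cell identity factors 6 were higher and 3 lower of 15 tested (median 0.11), with 3 higher without mouse 3. Pax5, the factor that keeps B cell identity, was not called, at 85.3, 111 and 102 CPM against 88.5, 86.1 and 95.8 CPM (0.15 ± 0.13, adjusted p = 0.47). Irf4 was too low to be tested, at 6.71 against 3.92 CPM.

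**Figure D4:**
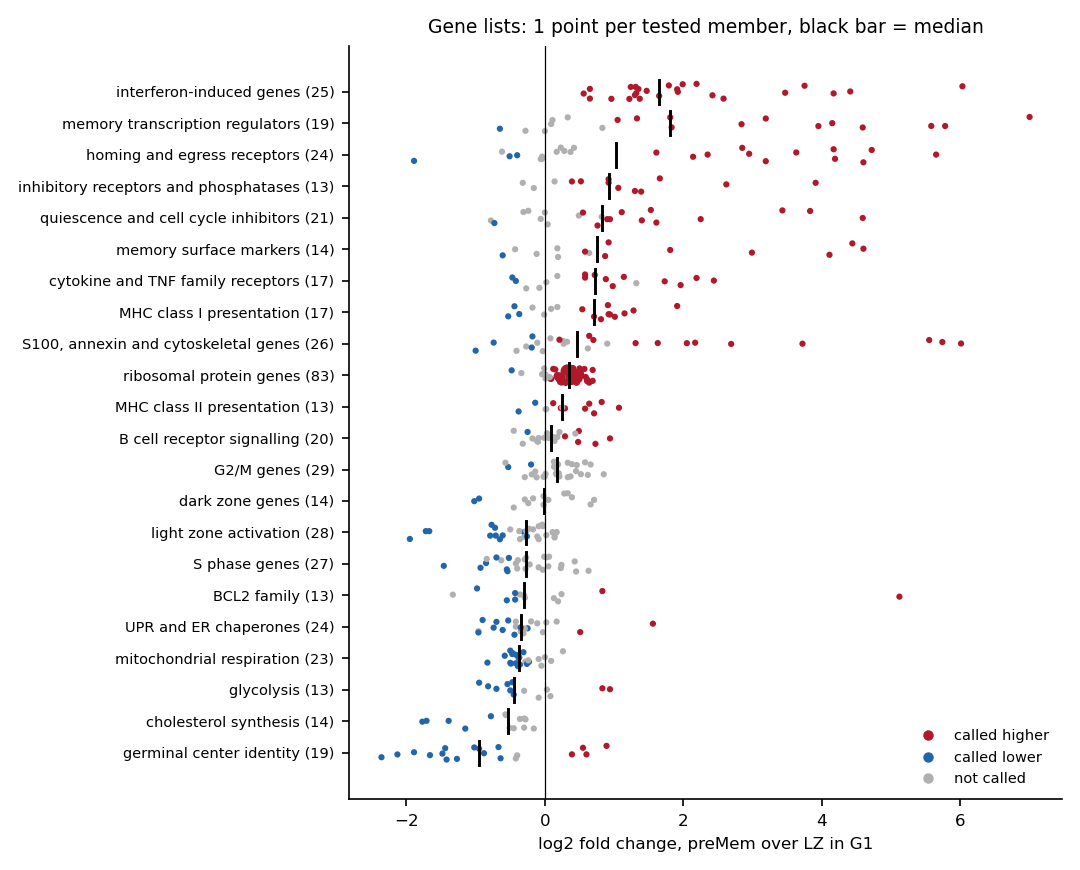
Log2 fold changes of preMem over LZ in G1 for the tested members of 22 gene lists (number tested in brackets), 1 point per gene with vertical jitter, coloured by call, and a black bar at each list's median. The medians run from 1.81 for memory transcription regulators to -0.95 for germinal center identity, and the interferon list has no point at or below 0.

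Metabolic lists leaned the other way. Mitochondrial respiration had 16 members lower, 0 higher and 7 not called of 23 tested, with a median of -0.37, and 10 lower without mouse 2. Atp5b, a subunit of ATP synthase, had 502, 462 and 437 CPM in preMem and 668, 662 and 650 CPM in LZ (-0.50 ± 0.06, adjusted p = 0.00012). Of the glycolysis genes 7 were lower and 2 higher of 13 tested (median -0.45), with 0 or 1 higher when any 1 mouse was left out. Ldha, which makes lactate, had 449, 383 and 285 CPM against 644, 724 and 758 CPM (-0.95 ± 0.12, adjusted p = 0.00014), while the glucose transporter Slc2a1 was higher (39.7 against 21.6 CPM, 0.83, adjusted p = 0.037).

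Cholesterol synthesis had 5 members lower and 0 higher of 14 tested (median -0.53). Without mouse 3, 1 of 13 was lower, and after thinning 1 of 9. The sterol enzyme Msmo1 had 15.1, 18.5 and 18.5 CPM in preMem and 52.4, 57.1 and 68.3 CPM in LZ (-1.77 ± 0.21, adjusted p = 8e-05). The unfolded protein response had 9 lower and 2 higher of 24 (median -0.35), with 1 higher without mouse 2. The chaperone Hspa5 had 228, 250 and 190 CPM against 375, 381 and 353 CPM (-0.74 ± 0.09, adjusted p = 7.4e-05), whereas Pdia4 rose, from 40.7, 35.3 and 34.9 CPM in LZ to 110, 111 and 104 CPM in preMem (1.56 ± 0.15, adjusted p = 1.1e-05). Of 12 listed plasma cell markers 4 were tested, and 3 of these were lower. Jchain had 356, 223 and 341 CPM in preMem and 886, 797 and 755 CPM in LZ (-1.42 ± 0.11, adjusted p = 1.6e-06), and Xbp1 77.8, 60.5 and 60.5 against 141, 122 and 121 CPM (-0.96 ± 0.13, adjusted p = 0.00017). The authors' median plasma cell score went the other way, at 0.15 ± 0.0093 in preMem and 0.118 ± 0.00637 in LZ (SD, n = 3 mice). It comes with no test, and its genes were not stated.

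Ribosomal protein genes were higher almost as a block, with 74 higher, 1 lower and 8 not called of 83 tested (median 0.35). They took 28.7% ± 0.563 of the UMIs of a preMem cell and 24.2% ± 0.337 of those of an LZ cell (exact sign-flip permutation test, two-sided p = 0.25, the smallest that 3 pairs allow). The highest of them, Rps24, had 10500, 9830 and 9770 CPM against 6330, 6030 and 6230 CPM (0.69 ± 0.02, adjusted p = 2.4e-09). Shares of a fixed total move together, and an absolute change of RNA per cell cannot be told apart from a change of share.

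Immunoglobulin transcripts divided the states by isotype. Ighm was the leading heavy chain in 60.6% ± 4.52 of preMem and 46.5% ± 2.88 of LZ cells, Ighd in 13.2% ± 1.91 and 0.369% ± 0.25, and a switched isotype in 13.4% ± 2.33 and 37.9% ± 3.71 (exact permutation p = 0.25 each, in the same direction in 3 of 3 mice). As levels, Ighd had 183, 190 and 191 CPM in preMem and 17.5, 12.1 and 11.4 CPM in LZ (3.82 ± 0.17, adjusted p = 2.5e-08), and Ighm 652, 570 and 638 against 401, 374 and 406 CPM (0.65 ± 0.06, adjusted p = 1.5e-05). Ighg1 was lower, at 148, 128 and 95.7 against 240, 176 and 148 CPM (-0.59 ± 0.11, adjusted p = 0.0018), although the mice overlapped. The Ighg1 call was lost among cells without an Ighd UMI (-0.26, adjusted p = 0.247) and with cells of all phases (-0.29, adjusted p = 0.0634). It was lost among eYFP-UMI cells as well (-0.52, adjusted p = 0.0506). Among IgM cells the value was -0.27 (adjusted p = 0.479) and among switched cells 0.31 (adjusted p = 0.38). Those cells were chosen by their leading heavy chain transcript, Ighg1 included, so both values are in part set by that choice. Light chain Iglc2 was higher (1290 against 426 CPM, 1.60), a value that may share reads with its near-copy Iglc3.

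Not all of the other markers of naive and marginal zone B cells moved as Ighd did. Of 8 tested members 4 were higher, Ighd itself among them, and 0 lower. Fcrl5 (34.4 against 2.17 CPM, 3.91) and Cd9 (12.0 against 3.3 CPM, 1.85) were also among the higher. Fcer2a (355 against 311 CPM, adjusted p = 0.14) and Cr2 (78.0 against 85.1 CPM, adjusted p = 0.60), both typical of such cells, were not called. Summed, the list was at 926, 928 and 976 CPM in preMem and 509, 491 and 544 CPM in LZ. Among cells without an Ighd UMI, 2 of 6 tested members were higher and the median was -0.09. Ighd is itself a member and was removed by that choice of cells. The counts and medians of these settings thus cover different members and cannot be compared directly.

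Several of the named differences were also measured in narrower sets of cells. Plac8 differed by 7.19 among eYFP-UMI cells, 7.27 without Ighd-UMI cells, 6.05 among IgM cells and 7.94 among switched cells, and S100a10 by 6.45, 6.51, 5.64 and 7.04 in the same order. Klf2 differed by 4.78 among eYFP-UMI cells, 4.64 without Ighd-UMI cells, 4.4 among IgM cells and 4.66 among switched cells. Cd38 gave 4.03, 4.0, 4.2 and 3.77 in the same order. All of these passed the test, as did S1pr2 at -2.05, -1.71, -1.71 and -2.1.

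A G1 call picks cells low in the genes of S and G2/M phase, so a smaller difference in those genes is fixed by the choice of cells, and the values here are a description. In G1, 7 of 27 tested S phase genes were lower and 0 higher (median -0.28; 4 lower without mouse 2), and 2 of 29 G2/M genes were lower and 0 higher (median 0.17; 1 lower without mouse 2 or 3). With cells of all phases, 30 of 30 S phase genes (median -1.53) and 28 of 30 G2/M genes (median -0.96) were lower, against 1442 of 8642 over all genes. These 2 analyses share the G1 cells, and their difference was not tested, since only 1 mouse had 10 or more cycling preMem cells.

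Mki67, the standard marker of proliferation, had 115, 121 and 121 CPM in preMem and 130, 120 and 115 CPM in LZ, overlapping (-0.02 ± 0.11, adjusted p = 0.96). Cells with a Mki67 UMI made up 21.3% ± 2.77 of preMem and 20.8% ± 0.735 of LZ cells after thinning (34.2% ± 1.06 and 43.0% ± 0.56 without thinning), so a share of the cells called G1 on both sides held RNA of this marker. Pcna, the DNA clamp, had 55.2, 55.4 and 42.0 against 47.1, 51.3 and 45.7 CPM (0.06 ± 0.17, adjusted p = 0.86). With all phases it was lower in preMem by -1.16 (adjusted p = 5.71e-06).

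The S phase genes called lower in G1 included the licensing factors Mcm5 (45.2, 57.1 and 35.3 against 73.3, 100 and 84.0 CPM, -0.93, adjusted p = 0.0016) and Mcm2 (57.7, 30.2 and 33.6 against 62.3, 69.6 and 76.3 CPM, -0.85, adjusted p = 0.017). Cdca7, a MYC target, had 35.1, 13.4 and 21.8 CPM in preMem and 50.6, 64.8 and 66.4 CPM in LZ (-1.46 ± 0.27, adjusted p = 0.0023). Among cells with at most 5 cycling UMIs, 0 of 17 tested S phase genes were called lower (median -0.24). After thinning 1 of 19 was (median -0.19). Over all genes, 252 of 4804 and 288 of 4997 were called lower in these settings. The cells with at most 5 cycling UMIs were chosen by their UMIs of S and G2/M phase genes, so their count is in part fixed by that choice. Dark zone genes had 2 of 14 lower in G1, among them Gcsam, and 8 of 14 with all phases. For comparison, 699 of all 7484 genes tested were lower in G1 and 1442 of 8642 with all phases.

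Lists outside the cell cycle moved by different amounts when cells of all phases were used. Memory regulators had a median of 1.81 in G1 and 1.79 with all phases, homing receptors 1.02 and 1.30, germinal center identity -0.95 and -0.94 and interferon-induced genes 1.65 and 1.77. Memory surface markers had 0.75 in G1 (8 of 14 higher) and 1.56 with all phases (15 of 19 higher), and naive and marginal zone markers 1.02 and 1.67. Among all genes tested, 862 of 7484 were higher in G1 and 1455 of 8642 with all phases. Cholesterol synthesis had -0.53 and -0.95, and plasma cell markers -0.92 and -0.40. These differences between medians were not tested, and the number of members tested differs between the 2 analyses.

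**Figure D5:**
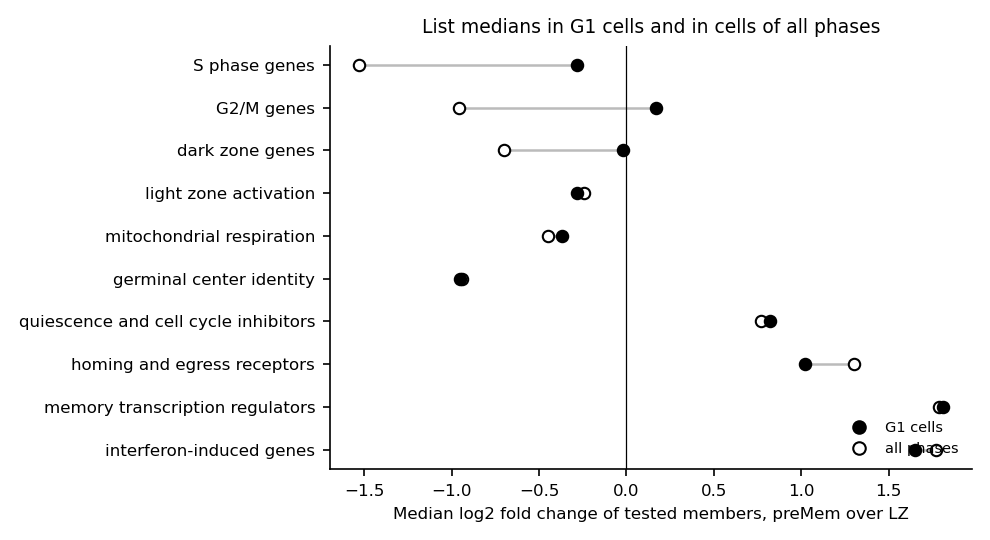
Median log2 fold change of preMem over LZ for the tested members of 10 gene lists, with filled circles for G1 cells and open circles for cells of all phases. S phase genes move from -0.28 to -1.53 and G2/M genes from 0.17 to -0.96 when cycling cells are added, while the germinal center identity and memory regulator medians stay within 0.02 of each other.

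Klf2 and Cd38 were intermediate in cells near the border of the states, while other genes were not. Of the preMem cells 352 of 370 lay in the cluster that the authors numbered 4, as did 62 of 1235 LZ cells. Pooled over mice, Klf2 was at 713 CPM in preMem cells inside that cluster and 82.9 CPM in the 18 outside, and at 164 CPM in LZ cells inside and 24.1 CPM in LZ cells outside. Cd38 gave 180, 59.2, 70.6 and 8.3 CPM in the same order. The 18 preMem cells outside held only 7 Klf2 UMIs, in 3 cells, and 5 Cd38 UMIs. They held 0 UMIs of Plac8 and 0 of Bcl2. Their Ccr6 (11.8 CPM) and eYFP (166 CPM) were near those of LZ cells outside (8.3 and 165 CPM). In contrast, S100a10 (35.5 CPM) and Pml (59.2 CPM) lay between preMem cells inside (235 and 115 CPM) and LZ cells outside (2.61 and 1.54 CPM).

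Within 0.02 of the memory score boundary the states were close in some genes and apart in others. Klf2 was at 263 CPM in the 38 preMem cells just above it and at 242 CPM in the 41 LZ cells just below. Mef2b was at 31.6 and 45.0 CPM. In contrast, Cd38 was at 126 and 45.0 CPM, Ccr6 at 132 and 39.3 CPM and eYFP at 89.4 and 174 CPM in the same order. Bcl2 had 1 UMI in the preMem cells there and 0 UMIs in the LZ cells. The values are pooled counts with no test.

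Within the preMem cells, those with IgM (63, 78 and 81 cells in mice 1 to 3) were compared with switched cells (12, 22 and 16 cells). Of 2741 genes 0 were called by edgeR (0.0%), 196 had an unadjusted p under 0.05, and DESeq2 called 1. The nearest to the threshold was Slpi, a protease inhibitor, at 57.8, 75.1 and 52.1 CPM in IgM and 199.7, 274 and 178 CPM in switched cells (-1.81 ± 0.26, adjusted p = 0.052). Ly6a (Sca-1) was next, at 1230, 1385 and 684 against 2157, 2171 and 1559 CPM (-0.87 ± 0.14, adjusted p = 0.066). The small number of switched cells limits this comparison, and without mouse 1 it gave 16 calls.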

How the data were processed

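Droplet-based 5' single-cell RNA sequencing was done on lymph node B cells of 3 mice. The matrix deposited by the authors holds whole UMI counts without normalization. Per the submitters' processing notes, Cell Ranger and Seurat were used, with mm10 and GRCm38 listed as builds. How cells were filtered and doublets handled was not stated. State, cell cycle call, cluster, mouse and the score per cell were deposited by the authors. Each cell carries 1 state, so no cell barcode could be shared between the sides (0). The cell names of both states have the same prefix.

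Counts were summed per mouse and state in cells called G1 (at least 20 cells per sum) and tested with edgeR 4.0.16 (R 4.3.3; glmQLFit and glmQLFTest, TMM scaling, filterByExpr, Benjamini-Hochberg adjustment, threshold 0.05) with mouse as a block, which left 2 residual degrees of freedom before sharing across genes. The pairing comes from the same animals. Deviations of same-mouse sums correlated at 0.0397, -0.0312 and 0.0488. CPM are scaled by the TMM factors and given with SD over the 3 mice. Pooled ratios carry exact binomial intervals, which cover counting error only. The members and the 32 gene lists (27 of 671 entries were absent from the matrix) were chosen with earlier results of these data known. The genes named are the 12 that changed most each way (50 CPM or more on average in the higher state, same direction in 3 mice, no immunoglobulin segments or predicted genes), a set of fixed genes and up to 4 members per list, while other list members, given by their mean, were picked once their values had been seen. The fit was tested on simulated data. DESeq2 1.42.0 was an alternative. Calls of immunoglobulin variable segments, which differ by clone, are not described. Some genes that met the naming rule are left out of the text and figures, though the list counts include them.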

Additional observations from a re-analysis of the deposited data

How the results depend on the processing

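Against 862 genes higher and 699 lower, DESeq2 called 480 and 238, equal cell numbers 559 and 377, thinned cells 502 and 288, switched cells 264 and 97, cells of all phases 1455 and 1442, and cells with under 2 UMIs of other types 420 and 222. Cells with an eYFP UMI (chosen after seeing the data, like the next 2) gave 541 and 299, cells without an Ighd UMI 642 and 431, and cells with at most 5 cycling UMIs 474 and 252. With no count filter 1099 genes were lower, and among IgM cells 395. Where Apoe and Cst3 were not counted as other types, a setting also chosen after seeing the data, the calls were 858 and 691. Higher genes were 66.9% of calls with DESeq2 and 73.1% in switched cells, 55.2% in the comparison as reported. Many of these sets hold fewer cells and tested fewer genes, from 3451 upward, against 7484. Leaving out 1 mouse gave 628 to 823 higher and 408 to 648 lower, with 430 lower without mouse 2 and 408 without mouse 3. The list counts given above without 1 mouse are to be read beside these smaller totals.

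Without the replicate block (mouse) the counts were 935 and 779. For IgM against switched preMem, 6 genes were called without the replicate block, 1 with DESeq2 and 0 to 16 without 1 mouse (16 without mouse 1). Of 116 named genes called, 68 were called under every alternative that tested them.

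Signs changed for genes that were not called. Pcna was -0.01 with no filter, -1.16 with all phases, -0.03 in switched cells, -0.11 without other-type cells, -0.01 to 0.16 without 1 mouse and -0.61 in the stricter G1 cells. Cxcr5 was 0.18 with all phases, 0.0 after thinning, 0.17 without other-type cells, -0.24 to 0.12 without 1 mouse and 0.19 in stricter G1 cells. Mki67 was 0.14 after thinning, 0.07 in IgM and 0.0 in switched cells, 0.69 (adjusted p = 0.0161) without other-type cells, -0.08 to 0.03 without 1 mouse and 0.06 without Ighd cells. Pax5 was -0.09 after thinning, -0.06 in IgM cells and -0.07 without Ighd cells, and Bach2 0.04 with all phases. Of called genes, Ighg1 was 0.31 among switched cells, Bcl6 0.01 without other-type cells and eYFP 0.07 among eYFP-UMI cells. Ighg1 and eYFP help choose those cells, so their values there are in part set by the choice. With Apoe and Cst3 not counted as other types, Bcl6 was -0.64 (edgeR, adjusted p = 0.0223) and Mki67 -0.0. The share with Mki67 after thinning differed by -0.76 to 1.51 without 1 mouse, against 0.499, and the median of cycling UMIs by -0.5 to 0.0. The cause was not tested.

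The planned test of state by phase and a planned stricter G1 of at most 2 cycling UMIs were not run, since 1 mouse and 1 sum respectively had enough cells. With 3 mice, genes of a few CPM in LZ have imprecise fold changes. The states were defined from the same RNA, so calls in the genes of the memory score are not independent of the choice of cells.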

Other observations

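Toll-like receptor genes, not described above, had 2 members higher and 1 lower of 9 tested (median 0.27). Ly86 (MD-1) was higher, with 522, 544 and 529 CPM in preMem and 320, 350 and 366 CPM in LZ (0.62 ± 0.07, adjusted p = 4.9e-05). Cd180, the receptor that pairs with it, was lower, with 339, 323 and 338 against 473, 459 and 489 CPM (-0.51 ± 0.07, adjusted p = 0.00023). Unc93b1, the chaperone of the endosomal receptors, was higher at 686 against 471 CPM (0.54). The serine protease inhibitor Serpina3g had 148, 150 and 55.4 CPM in preMem and 6.4, 7.25 and 3.09 CPM in LZ (4.34 ± 0.21, adjusted p = 4.1e-08), with mouse 3 lowest on both sides. Of 11 tested immunoglobulin constant genes 4 were higher and 1 lower (median 0.36), of 4 tested plasma cell markers 3 were lower and 0 higher, and the 1 erythroid gene tested, Hbb-bt, was not called.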
